A study of Mus musculus with 4 samples.

Results

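Among the droplets of wild-type colon SILT, 113 of 7714 kept cells (1.46%, exact binomial 95% interval 1.21 to 1.76%) met a rule built on transcripts of the epithelial adhesion molecule Epcam and the simple keratins Krt8, Krt18 and Krt19. SILT, solitary isolated lymphoid tissues in the labels, are small lymphoid aggregates of the gut wall that lie under the epithelium. A cell was a member when it held at least 1 Epcam UMI and at least 6 UMIs of the 4 genes together, with at most 1 UMI each of Csf1r and Cd79a and at most 4 of the endothelial genes Kdr, Flt1, Plvap and Cdh5. A UMI is a molecular tag that counts 1 captured transcript, and cells were kept if they showed 200 genes or more and no more than 10% mitochondrial UMIs. The 4 libraries of the series were made by droplet 3' sequencing of cells positively selected for CD11b, an integrin of myeloid cells, and they came from SILT or lamina propria of the colon. Wild-type mice were Csf2+/+ and the others Csf2-/-, which lack the myeloid growth factor CSF2, and all carried the CX3CR1-GFP/+ and CCR2-RFP/+ reporter alleles. The labels give no treatment, age or sex. The submitters speak of 5 mice, and pooling of animals within a library is not stated. Each group was 1 library, so no difference below has a replicate check, and the intervals cover counting error only.

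The colonic epithelium is renewed from stem cells at the crypt base. Their daughters become absorptive colonocytes, which take up salt, water and short-chain fatty acids, or secretory cells, which include mucus-making goblet cells, hormone-making enteroendocrine cells and tuft cells. Over lymphoid tissue the epithelium can also hold M cells, which pass luminal antigen to the cells beneath.

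The wild-type SILT library held 67656927 UMIs in 8041 barcodes, and the other 3 libraries held 19225644 to 50017502 UMIs. The same rule found 3 of 2378 kept cells in Csf2-/- SILT, 5 of 1974 in Csf2-/- lamina propria and 5 of 4491 in wild-type lamina propria. Of those 13 cells, all but 2 carried Ptprc, the CD45 gene of blood-derived cells, and at most 1 keratin UMI. The 2 others were from wild-type lamina propria. The deeper of them held 39061 UMIs with 86 of Epcam, 61 of Krt8, 88 of Lgals4 and 81 of Muc2, and the shallower held 1518 UMIs. A count of 0 cells with at least 3 keratin UMIs in Csf2-/- SILT allows a share of up to 0.126%, against 88 cells (1.14%, interval 0.916 to 1.4%) in wild-type SILT. How many epithelial cells were released or passed the selection in each library was not measured, and genotype and library cannot be told apart. No member shared its barcode with another library.

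The label held for most members and not for all. Of the 113 members, 88 carried at least 3 keratin UMIs and 25 carried at most 2, a split chosen after the values were seen. The 88 cells, called keratin members here, had 2 to 1027 Lgals4 UMIs with a median of 149.5, and Ptprc at 0 in 67 of them. The 25 keratin-poor members had 4 to 66 Epcam UMIs with a median of 10, Lgals4 at 0 in 19 and Cdh1, the E-cadherin gene, at 0 in 22. Ptprc was found in 23 of the 25, with a median of 8 and a highest value of 25 UMIs. The 2 sets overlapped in Epcam, while Lgals4 was 0 to 2 UMIs in keratin-poor members and Ptprc was 0 to 6 UMIs in keratin members. The median depth was 34459 UMIs in keratin members and 15297 in keratin-poor ones.

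**Figure D1:**
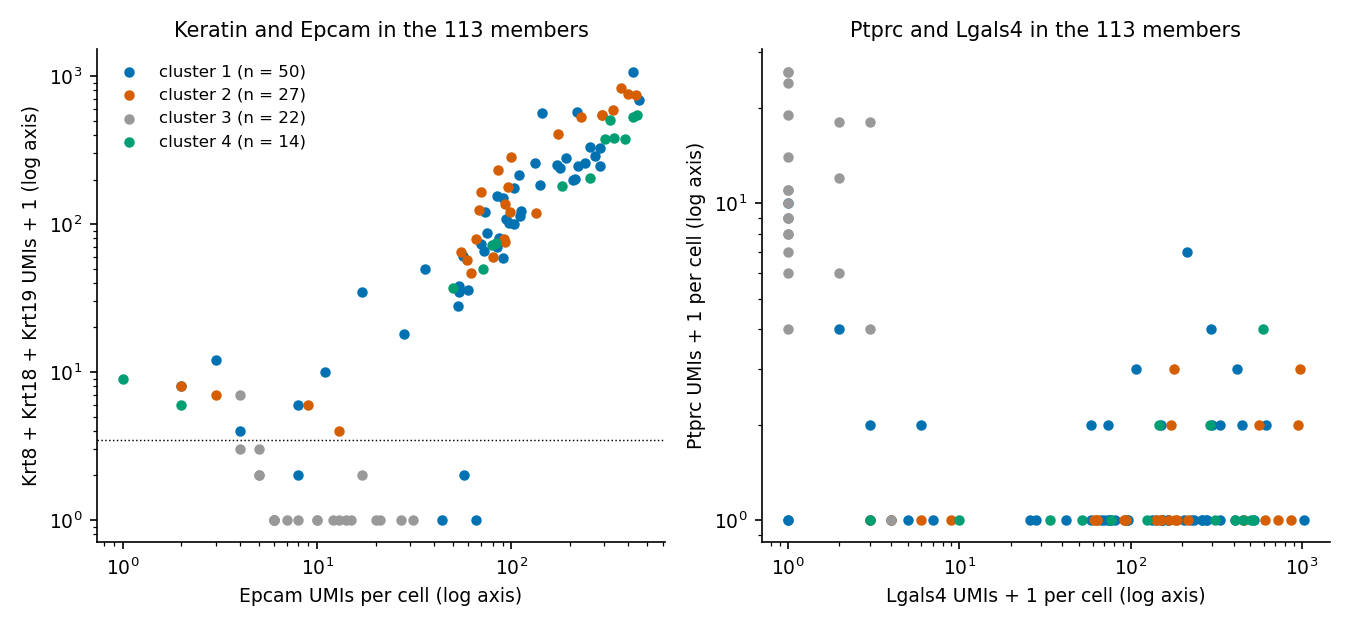
UMIs per cell in the 113 members on log axes, with Epcam against the sum of Krt8, Krt18 and Krt19 plus 1 at left and Lgals4 plus 1 against Ptprc plus 1 at right, coloured by cluster, the dotted line separating at least 3 from at most 2 keratin UMIs. Most cells of cluster 3 lie below the line and carry Ptprc, and 46 of 50, 27 of 27 and 14 of 14 cells of clusters 1, 2 and 4 lie above it.

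Keratin-poor members were high in genes of antigen presentation. Cd74, the invariant chain of MHC class II, stood at 20023 CPM (the UMIs of a gene scaled to a common total of summed UMIs) in keratin-poor members, against 250 CPM in keratin members. Over all members the 7 MHC class II genes of the list were at least 4-fold lower than over the other kept cells, where 15.9% of all genes tested were, with a median log2 ratio of -2.59 beside -0.02 over all genes. They summed to 37055 CPM in keratin-poor members, 474 CPM in keratin members, 38541 CPM in cells gated on Csf1r and 1284 CPM in endothelial-gated cells. Flt3, a cytokine receptor of dendritic cell development, was found in 16 of the 25 keratin-poor members and in 1 of the 88 keratin members. Itgax, which encodes CD11c, was found in 20 and in 7 of them. Both belong to a list of 5 dendritic cell genes whose other members were not all high. Ccr7 stood at 9.7 CPM in keratin-poor members and 21.4 CPM in the other kept cells, and Clec9a gave 5 UMIs in 1 cell. Itgam, the gene of CD11b itself, gave 15 UMIs in 7 keratin-poor members and 2 UMIs in 2 keratin members, and stood at 263 CPM in the Csf1r-gated cells.

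Among the keratin-poor members 4 cells, singled out after their values were seen, held many UMIs of other genes. In 3 of them Clu, a secreted chaperone gene, had 559, 1100 and 598 UMIs. Cxcl13, a chemokine that draws B cells into follicles, had 595, 522 and 46 UMIs in the same 3 cells, and Dcn, a fibroblast matrix gene, had 22, 161 and 549. These cells had 66, 44 and 57 Epcam UMIs, and Ptprc at 9, 0 and 0. The other cell held 18171 UMIs of Igkc, an antibody light chain, and 2884 of Jchain, which joins secreted antibody, with 8 of Epcam. Scrublet marked none of the 113 members as a doublet, among 136 cells it marked in the library. The 6-UMI threshold ran through such cells: of 7 cells with exactly 6 marker UMIs, 0 had at least 3 keratin UMIs and 7 carried Ptprc, and of 7 cells just outside it, with 5, the counts were 2 and 5.

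Epithelial identity across genes was read in the keratin members, which held 4611578 of the 5023858 UMIs of all members. The libraries read the 3' end of each transcript, so a level in CPM counts captured tags and is not scaled by length. The genes of the rule are given as a description: per keratin member, Epcam had 1, 93.5 and 454 UMIs (lowest, median, highest). Krt8 had 0, 56.5 and 544, Krt18 had 0, 23 and 149, and Krt19 had 0, 38 and 458 UMIs in the same order. Outside the rule, Cldn7 had 0, 54 and 357 UMIs and was found in 85 of the 88, and Cdh1 had 0, 7 and 40 and was found in 76. The keratins and Cldn7 were present in nearly every cell, over a wide range of levels.

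The set of 22 pan-epithelial genes, which leaves out the 4 rule genes, had a level per cell of 2677, 10864 and 22231 CPM (lowest, median, highest) in keratin members. In the 1686 endothelial-gated cells, which had no Epcam UMI, it was 0, 68.9 and 1692 CPM. The ranges did not overlap.

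Of 3804 genes with at least 50 CPM in either set, 339 (8.91%) exceeded the other kept cells by at least 4-fold in the 113 members, and 605 (15.9%) were at least 4-fold lower. These cells were chosen on genes of the same table, so the contrast is a description. Of the pan-epithelial list 17 genes passed the floor and 17 of them were among the higher genes, with a median log2 ratio of 4.19 beside -0.02 over all genes. The other kept cells include 117 droplets that met the marker minimum and failed an exclusion, and without these droplets the pan-epithelial sum of the other cells was 115 CPM, against 640 CPM with them. Cldn15 of the list was also carried by endothelial-gated cells, at 30.3 CPM beside 38.6 CPM in keratin members. Endothelial-gated cells, which should lack most genes of the list, were used as a second background. Against them 456 of 4236 genes (10.8%) were at least 4-fold higher in keratin members and 886 (20.9%) at least 4-fold lower, and the pan-epithelial median was 7.72 beside -0.37.

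Lgals4, a gut lectin gene on chromosome 7, stood at 4303 CPM in keratin members (Poisson interval 4243 to 4363), against 22.8 CPM in endothelial-gated cells, a 188-fold ratio. Cldn7, a tight-junction claudin, stood at 1578 and 5.71 CPM, and Pigr, the receptor that carries IgA across the epithelium, at 1452 and 6.57 CPM in the same order. The transcription factors Cdx1 (236 and 0.865 CPM), Elf3 (219 and 1.04 CPM) and Klf5 (447 and 1.64 CPM) showed the same pattern. After thinning to 5000 UMIs, Lgals4 was found in 76 of 76 keratin members and in 108 of 1075 endothelial-gated cells (10.0%). The shares before thinning were 100% and 13.6%, at median depths of 34459 and 5956.5 UMIs. Endothelial cells should lack the gene, so their share is read as background.

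The ratio to the other kept cells was ranked among genes of at least 200 CPM with a UMI in at least 20% of members. Genes below that level, such as Fabp2 at 42.1-fold and Aqp4 at 27.5-fold, were left out. The 20 leading genes lay close together, from Hsd11b2 at 23.4-fold (interval 21.6 to 25.3), through Elf3, Spink4, Ttr, Sycn and Agr2, down to Tspan1 at 19.4-fold. With the 117 failed droplets left out of the other cells, the same genes stood 141-fold (Sycn) to 268-fold (Zg16) higher and in another order, with Hsd11b2 at 220-fold and Tspan1 at 235-fold. Hsd11b2 encodes the enzyme that inactivates glucocorticoid in mineralocorticoid target tissue. Ttr encodes the thyroid hormone carrier transthyretin, and it gave 2683 UMIs in 75 members. Sycn, known from zymogen granules of the pancreas, gave 23465 UMIs in 95 members. Among the 15 genes of highest level in members stood Mptx1 with 5883 CPM, S100a6 with 5149 CPM, Sycn with 4671 CPM, Lgals4 with 3951 CPM and Spink4 with 3791 CPM. Mptx1 is a pentraxin gene with a close paralog, so its counts are uncertain to the extent that reads were split or shared, and the same holds for Gsdmc2 and Gsdmc4.

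The start sites of 4 genes, picked after their values were seen from 13 examined, are shown because they mark the 2 patterns found within the members: Lgals4 and Sycn were carried with and without Muc2, and Mptx1 and Sval1 were carried almost wholly with it. The windows run from 250 bases before to 50 after the start in RefSeq, build GRCm38.p6, all on the plus strand, at chr7:28833544-28833843 for Lgals4, chr7:28540635-28540934 for Sycn, chr1:174330268-174330567 for Mptx1 and chr6:41951378-41951677 for Sval1. Capitals mark the letters CAGCTG, an E-box.
Lgals4: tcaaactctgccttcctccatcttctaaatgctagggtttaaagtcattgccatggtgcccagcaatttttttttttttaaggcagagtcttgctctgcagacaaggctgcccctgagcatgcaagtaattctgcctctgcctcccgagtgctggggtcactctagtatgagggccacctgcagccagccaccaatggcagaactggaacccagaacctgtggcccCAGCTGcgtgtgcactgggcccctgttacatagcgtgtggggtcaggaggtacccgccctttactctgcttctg
Sycn: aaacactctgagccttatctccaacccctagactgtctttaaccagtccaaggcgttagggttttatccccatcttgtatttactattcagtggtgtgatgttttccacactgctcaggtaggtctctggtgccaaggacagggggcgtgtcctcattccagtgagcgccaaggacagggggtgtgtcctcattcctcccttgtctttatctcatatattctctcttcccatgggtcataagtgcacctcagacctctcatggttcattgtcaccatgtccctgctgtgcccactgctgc
Mptx1: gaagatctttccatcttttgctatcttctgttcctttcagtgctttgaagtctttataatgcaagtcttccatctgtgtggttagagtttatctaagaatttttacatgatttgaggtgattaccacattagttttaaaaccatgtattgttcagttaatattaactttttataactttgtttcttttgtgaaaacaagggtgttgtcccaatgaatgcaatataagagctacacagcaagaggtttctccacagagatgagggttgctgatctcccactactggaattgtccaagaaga
Sval1: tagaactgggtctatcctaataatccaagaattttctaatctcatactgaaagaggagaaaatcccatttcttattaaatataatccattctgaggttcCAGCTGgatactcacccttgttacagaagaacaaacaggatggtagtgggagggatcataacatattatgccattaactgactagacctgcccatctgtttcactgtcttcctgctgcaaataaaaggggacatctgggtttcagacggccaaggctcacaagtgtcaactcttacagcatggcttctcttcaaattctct
The letters TTTATG (named for CDX factors), CAAAGTCCA (HNF4) and CAGCTG (which reads the same on both strands) were searched on both strands, together with the HNF1 palindrome, all chosen with the results known. The E-box letters stood 24 bases before the start of Lgals4 and 151 before that of Sval1, and the other letters were not in these 4 windows. Of 20 genes with the highest ratio, 12 had an entry, with 14 windows. TTTATG was in 14.3% of the 14, beside 11.9% of all 32851 windows, CAAAGTCCA in 7.14% beside 0.475%, CAGCTG in 7.14% beside 16.3%, and the HNF1 palindrome in 0% beside 0.00913%. With 14 windows these shares stand for 2, 1, 1 and 0 windows. Of the 13 genes examined 10 had an entry, and 2 of these held TTTATG, 3 held CAGCTG and 0 held either of the other motifs. A match is no more than the presence of the letters.

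**Figure D2:**
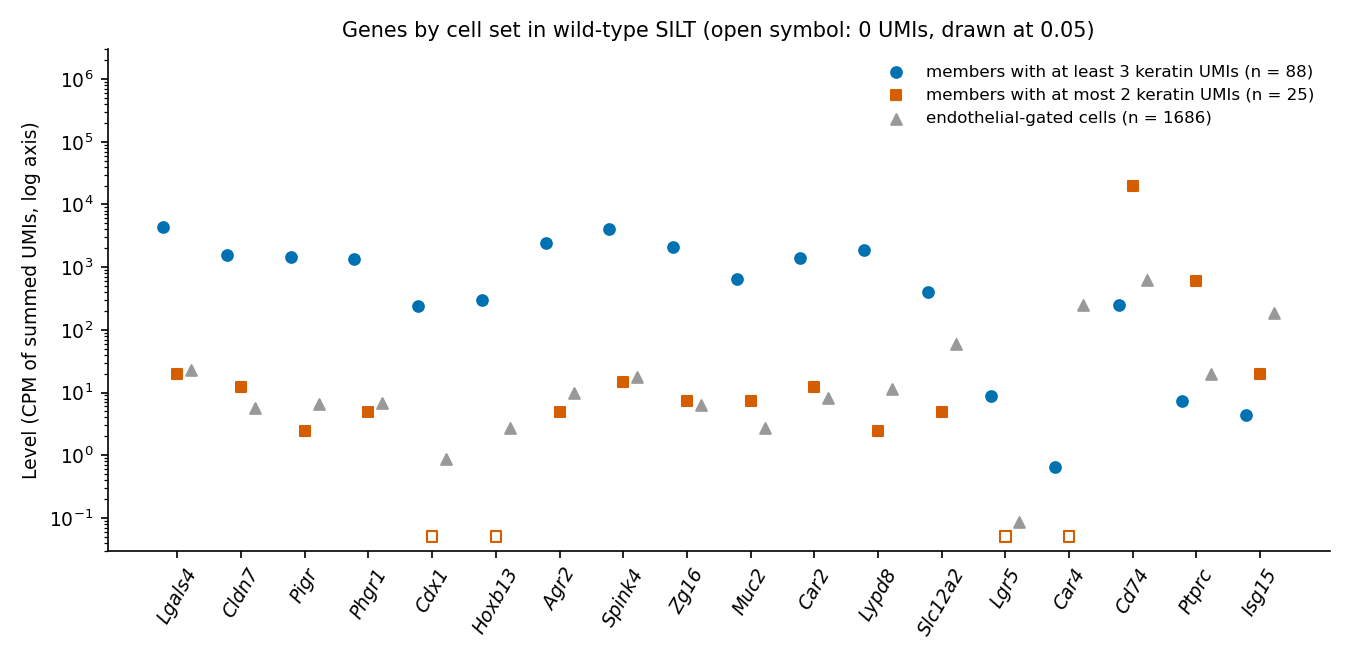
Level of 18 genes in CPM of summed UMIs on a log axis, in keratin members (88 cells), keratin-poor members (25 cells) and endothelial-gated cells (1686 cells), an open symbol marking 0 UMIs drawn at 0.05. Epithelial and goblet genes stand highest in keratin members, while Cd74 and Ptprc stand highest in keratin-poor members and Isg15 and Car4 in endothelial-gated cells.

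Several genes known from the distal gut were higher in keratin members. Of 13 genes measured of the segment list 5 passed the floor. These include Cdx1 and Gata6, at 217 and 76.0 CPM in members, so the count is not one of distal genes alone. All 5 exceeded the other kept cells by at least 4-fold, as 8.91% of all genes did. Their median log2 ratio was 4.3 beside -0.02. Against endothelial-gated cells 5 of 7 tested were at least 4-fold higher in keratin members, beside 10.8% of all genes. Of these 7, 1 was at least 4-fold lower, beside 20.9%. Hoxb13, a homeobox gene of the hindmost body, stood at 302 CPM in keratin members and 2.68 CPM in endothelial-gated cells, with 1394 UMIs over 80 members. Hoxd13, another homeobox gene of the hind end, stood at 61.6 and 0.26 CPM in the same order. Hoxb13 and Hoxd13 lay below the floor of 50 CPM in the other kept cells and passed it only through the members. The count of 5 and its median are therefore a description. Gata4, a factor of the small intestine, had 0 UMIs in all members. Of the small-intestinal and Paneth list, 8 of 12 genes were at 0 in members, among them the enterocyte enzymes Lct, Sis and Alpi. Fabp6 of the same list went the other way, with 174 UMIs in 42 members, of which 1 cell gave 46.6%. It stood at 37.7 CPM in keratin members and 0.173 CPM in endothelial-gated cells. Hoxb6, Hoxb7 and Hoxb8 were at 1.3, 3.69 and 0.217 CPM in keratin members and at 18.8, 65.8 and 18.9 CPM in endothelial-gated cells. Markers of squamous epithelium summed to 3.9 CPM and those of mesothelium to 1.08 CPM in keratin members, with Krt5 and Msln at 0.

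Goblet genes took the largest part of the UMIs among the lineage lists. The 10 genes held 1.01% of the UMIs of all members. All 8 that passed the floor exceeded the other kept cells by at least 4-fold, beside 8.91% of all genes, with a median log2 ratio of 4.25 beside -0.02. Genes such as Atoh1 and Clca1, at 3.38 and 7.51 CPM in the other kept cells, passed the floor only through the members, so the count is a description. They summed to 10969 CPM in keratin members, 50.9 CPM in keratin-poor members and 45.1 CPM in endothelial-gated cells. Spink4 stood at 4128 CPM and Agr2, which folds mucin in the endoplasmic reticulum, at 2440 CPM in keratin members, against 17.7 and 9.86 CPM in endothelial-gated cells. Tff3, a trefoil peptide, stood at 1074 CPM and Muc2, the main mucin of colonic mucus, at 652 CPM in keratin members. Retnlb, another goblet product, had 2 UMIs in all. The share was 2.49% in the 25 cells that had no UMI of any excluding gene.

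Absorptive markers were carried in part. Lypd8, which keeps flagellated bacteria from the surface, stood at 1857 CPM in keratin members and 11.2 CPM in endothelial-gated cells, and Guca2a, the guanylin gene, at 316 and 1.04 CPM. By contrast, Slc26a3, the chloride exchanger of surface colonocytes, had 39 UMIs in 10 members, Aqp8 had 1, Krt20 had 15 and Tmigd1 had 2. Car4, an anchored carbonic anhydrase of the colonic surface, had 3 UMIs in members, 0.651 CPM in keratin members and 250 CPM in endothelial-gated cells. The list took 0.213% of the UMIs of all members, and 0.12% of those with at most 5% mitochondrial UMIs. Car1, the cytosolic carbonic anhydrase, was unevenly spread, with 451 UMIs in 22 members and at least 10 in 9.

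Transport and brush-border genes were broadly carried. Of 10 ion and water transport genes tested against the other kept cells, 8 were at least 4-fold higher, beside 8.91% of all genes, and Car4 was lower, as were 15.9% of all genes. Their median log2 ratio was 3.71 beside -0.02. Genes such as Cftr and Aqp4, at 5.51 and 2.67 CPM in the other kept cells, passed the floor only through the members. The count is therefore a description. Car2 stood at 1387 CPM, the sodium pump subunit Atp1b1 at 903 CPM and the chloride channel Cftr at 106 CPM in keratin members, against 8.13, 5.28 and 0.26 CPM in endothelial-gated cells. Aqp4, a water channel, stood at 78.7 and 0.173 CPM, and 1 cell gave 48.6% of its UMIs. Of 7 brush-border genes tested, 6 were at least 4-fold higher, beside the same 8.91%, with Muc3 at 762 CPM and Muc13 at 733 CPM in keratin members. Of 10 junction genes tested 5 were higher, beside 8.91%, and those that were not include Tjp1, which stood at 59.6 CPM in keratin members and 358 CPM in endothelial-gated cells, whose junctions use it too. Cdhr5, Cldn3 and Dsp, at 4.65, 18.8 and 13.6 CPM in the other kept cells, passed the floor only through the members. The brush-border and junction counts are therefore a description too.

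Crypt-base and progenitor genes were present at levels that differed between genes. Of 10 genes 3 passed the floor, and all 3 exceeded the other kept cells by at least 4-fold, beside 8.91% of all genes. Their median log2 ratio was 2.63 beside -0.02. Cdca7, at 11.4 CPM in the other kept cells, passed the floor only through the members, so the count is a description. The chloride importer Slc12a2 stood at 396 CPM, Sox9 at 138 CPM and the replication gene Cdca7 at 74.4 CPM in keratin members, against 60.3, 0.952 and 11.5 CPM in endothelial-gated cells. Lgr5, the receptor that marks crypt stem cells, had 40 UMIs in 15 members, and Smoc2 and Ascl2 had 187 and 136 in 40 and 33 members. Among the cell-cycle genes, of 8 tested 1 exceeded the other kept cells by at least 4-fold in members, near the 8.91% of all genes. Against endothelial-gated cells 6 of 8 were at least 4-fold higher in keratin members, beside 10.8% of all genes. Birc5, at 5.8 CPM in endothelial-gated cells, passed the floor only through the keratin members, so this count is a description. Mki67 reached at least 10 UMIs in 18 keratin members and was at 0 in 44 of the 88.

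Enteroendocrine transcripts were gathered in 2 cells. In a keratin member of 7470 UMIs, 743 were of Pyy, 234 of Insl5, 18 of Gcg and 23 of Chga, genes of gut peptide hormones and their granules. In another, of 91504 UMIs, 567 were of Pyy and 69 of Chga, with Reg4 at 68, and Insl5 and Gcg at 0. These 2 cells gave nearly all of the 1314 Pyy UMIs of the 113 members. Tuft markers were near 0, with 6 of 10 genes at 0, among them Trpm5, Pou2f3 and Il25, and a sum of 2.17 CPM in keratin members. Of the M cell and follicle-associated list, Gp2 had 2 UMIs in all, Spib was at 0.651 CPM and Sox8 at 0 in keratin members. Pglyrp1, a peptidoglycan receptor that other epithelial cells also make, was the 1 gene of that list to exceed the other kept cells by at least 4-fold among 6 tested, beside 8.91% of all genes, and stood at 584 CPM in keratin members and 14.8 CPM in endothelial-gated cells. Of the 6, 3 were at least 4-fold lower, beside 15.9% of all genes, and the median log2 ratio was -1.9. Ccl20, the chemokine of epithelium over lymphoid follicles, had 72 UMIs in 7 members, of which 1 cell gave 36.

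Of 6 antimicrobial genes tested against the other kept cells, 5 were at least 4-fold higher, beside 8.91% of all genes, and Slpi was lower, beside 15.9%. Their median log2 ratio was 4.17. The members were chosen on genes of the same cells, so the count is a description. Wfdc2 stood at 1472 CPM and Reg4 at 620 CPM in keratin members, against 8.3 and 2.6 CPM in endothelial-gated cells. Some genes known to rise in colon inflammation were near 0, with Reg3b, Lcn2, Nos2 and Saa2 at 0 in members and Reg3g at 28 UMIs in 5 cells. Duox2 and Duoxa2 of the same list were carried, with 59 UMIs in 36 members and 19 UMIs in 12 members. Duox2 stood at 12.4 CPM in keratin members and 0.173 CPM in endothelial-gated cells. Interferon-response genes were low. Against the other kept cells 5 of 7 tested were at least 4-fold lower in members, beside 15.9% of all genes. Against endothelial-gated cells, the gate with the highest sum, 12 of 13 were at least 4-fold lower in keratin members, beside 20.9% of all genes. Isg15 stood at 4.34 CPM in keratin members and 188 CPM in endothelial-gated cells, and passed the floor only through the latter. So did Gbp2 (1.52 and 157 CPM), Gbp3 (0.217 and 84.8 CPM) and Bst2 (32.3 and 467 CPM). Against the other kept cells, at 60.4, 50.3 and 359 CPM, Gbp2, Gbp3 and Bst2 passed it only through those cells. Both interferon counts are therefore a description. The 8 MHC class I genes tested against endothelial-gated cells were all at least 4-fold lower in keratin members, with the same 20.9% beside them and B2m at 188 and 1562 CPM. Against the other kept cells fewer were, with 3 of 7 at least 4-fold lower in members, beside 15.9% of all genes. Their median log2 ratio there was -1.72. The interferon genes summed to 173 CPM in keratin members, 799 CPM in Csf1r-gated, 451 CPM in Cd79a-gated and 1841 CPM in endothelial-gated cells.

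Genes of fuel and toxin handling were higher in part. Of 11 fatty acid and ketone genes tested against the other kept cells 6 were at least 4-fold higher, beside 8.91% of all genes, with Hadh at 401 CPM and the butyrate carrier Slc5a8 at 177 CPM in keratin members, against 73.4 and 0.779 CPM in endothelial-gated cells. Their median log2 ratio was 2.32, and that of 8 xenobiotic genes, of which 5 were higher, was 2.46 beside -0.02, with Adh1 at 815 and 4.41 CPM. Bdh1, Fabp2 and Adh1, at 4.26, 1.79 and 45.8 CPM in the other kept cells, passed the floor only through the members. Both counts are therefore a description. Sensors of microbes included Nlrp6, an inflammasome gene of the gut, at 67.2 CPM in keratin members and 0.0865 CPM in endothelial-gated cells. Of the cytokines, Il18 stood at 142 and 1.38 CPM, and Ccl28, which draws IgA-secreting cells, at 49.0 and 0.519 CPM. Csf2 itself had 0 UMIs in members, which allows up to 0.597 CPM. Its receptor genes Csf2ra and Csf2rb stood at 9.76 and 1.08 CPM in keratin members and at 89.7 and 114 CPM in keratin-poor ones. Csf2rb has a close paralog, and its counts are uncertain for that reason. The list of genes induced by cell handling summed to 2675 CPM in keratin members and 7627 CPM in endothelial-gated cells.

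Markers of other cell types were low in keratin members, but the rule itself capped Csf1r, Cd79a and the endothelial genes. Droplets that carried more of these transcripts beside the epithelial markers had been left out. The macrophage, B cell and endothelial sums are therefore partly set by the choice of cells and do not test its purity. The rule set no limit on fibroblast, T cell or dendritic cell genes. The lists summed to 209 CPM for macrophages, 14.5 CPM for fibroblasts, 21.7 CPM for endothelium, 8.02 CPM for T and innate lymphoid cells and 2.39 CPM for dendritic cells. In endothelial-gated cells the macrophage, fibroblast, T and dendritic sums were 463, 99.4, 27.8 and 13.8 CPM. B cell genes summed to 705 CPM in keratin members and 1099 CPM in endothelial-gated cells, and Igkc was found in all 88 keratin members, at 2 to 128 UMIs.

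Clustering of the 113 members gave 4 clusters, whose leading genes are a description of the same cells. Cluster 1 held 50 cells, of which 46 were keratin members, and its leading genes Cxcl13, Pyy, Clu and Dcn each drew 47.3 to 73.9% of their UMIs in it from 1 cell. Cluster 2 held 27 keratin members and was led by Zg16, Clca1, Spink1, Tgm3 and Car1. Cluster 3 held 22 cells, 21 of them keratin-poor, and was led by Rnase6, Bcl2a1d, Pkib, Gpr141 and Cd69. Cluster 4 held 14 keratin members and was led by the histone and division genes Nusap1, Ube2c, Hist1h2ap and Hist1h1b. Its median depth was 82762 UMIs, against 34236, 32170 and 14690 in clusters 1, 2 and 3.

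Muc2 split the keratin members into carriers and cells without it. Among the 75 keratin members with at least 10000 UMIs, 38 held at least 10 Muc2 UMIs, 32 held at most 1 and 5 lay between, a division made after the values were seen. The median depth was 41510 UMIs in Muc2 carriers and 34459 in cells with at most 1. Of 2938 genes tested between them, 36 (1.23%) were at least 4-fold higher in carriers and 2 (0.0681%) at least 4-fold lower. Both sets are parts of the same library, and Muc2 made the split, so no test was run.

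Mptx1 stood at 11036 CPM in Muc2 carriers and 32.2 CPM in cells with at most 1 Muc2 UMI, a 343-fold ratio (interval 262 to 458). Sval1 stood at 3243 and 15.2 CPM, Spink4 at 6691 and 118 CPM, and Tff3 at 1830 and 27.9 CPM in the same order. Fcgbp, which encodes a protein bound to mucus, stood at 653 and 6.07 CPM, and Hepacam2 at 183 and 1.82 CPM. Gcnt3, which branches mucin sugars, had 181 UMIs in carriers and 0 in the others, a ratio of at least 38.5 against a floor of 3 counts over that set. Pan-epithelial genes did not follow the split, with Lgals4 at 4319 and 4403 CPM, Cldn7 at 1480 and 1697 CPM, Sycn at 5639 and 5099 CPM and the list as a whole at 12547 and 12098 CPM. The lower genes were Fabp6, at 17.4 and 77.0 CPM, of which 1 cell gave 47.1%, and Cenpa, a centromere gene, at 16.3 and 69.8 CPM. The absorptive gene Lypd8 was at 1945 and 1901 CPM.

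Per keratin member, Muc2 had 0, 3 and 370 UMIs (lowest, median, highest), Reg4 had 0, 3.5 and 199, and Zg16 had 0, 0 and 2209. Each was at 0 in many cells and high in some. The ratio of variance to mean over the 113 members, after thinning to 1000 UMIs, was 392 for Igkc, 55.8 for Jchain and 47.8 for Igha, with 83.6%, 85.0% and 69.3% of the UMIs of each in 1 cell. Among genes of at least 100 CPM other than these and the ribosomal and mitochondrial ones, it was highest for Pyy (85.5), Zg16 (66.2), Malat1 (36.2) and Mptx1 (35.1), followed by Clu (33.1) and Dcn (32.6).

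Within the Muc2 carriers a small set held most of the Zg16, a lectin that binds bacterial cell walls. Zg16 reached 316 to 2209 UMIs in 7 cells, all of them Muc2 carriers, and stayed at or below 38 in the rest. These 7 cells held 3 Mki67 UMIs at most, and 4 of them had at least 10 Car1 UMIs, as did 3 cells with at most 1 Muc2 UMI. Reg4, in contrast, reached at least 10 UMIs in 33 of 38 carriers and in 1 of 32 cells with at most 1 Muc2 UMI. Mki67 reached at least 10 UMIs in 10 of 38 carriers and in 8 of 32 others, so Mki67 was found on both sides of the split.

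**Figure D3:**
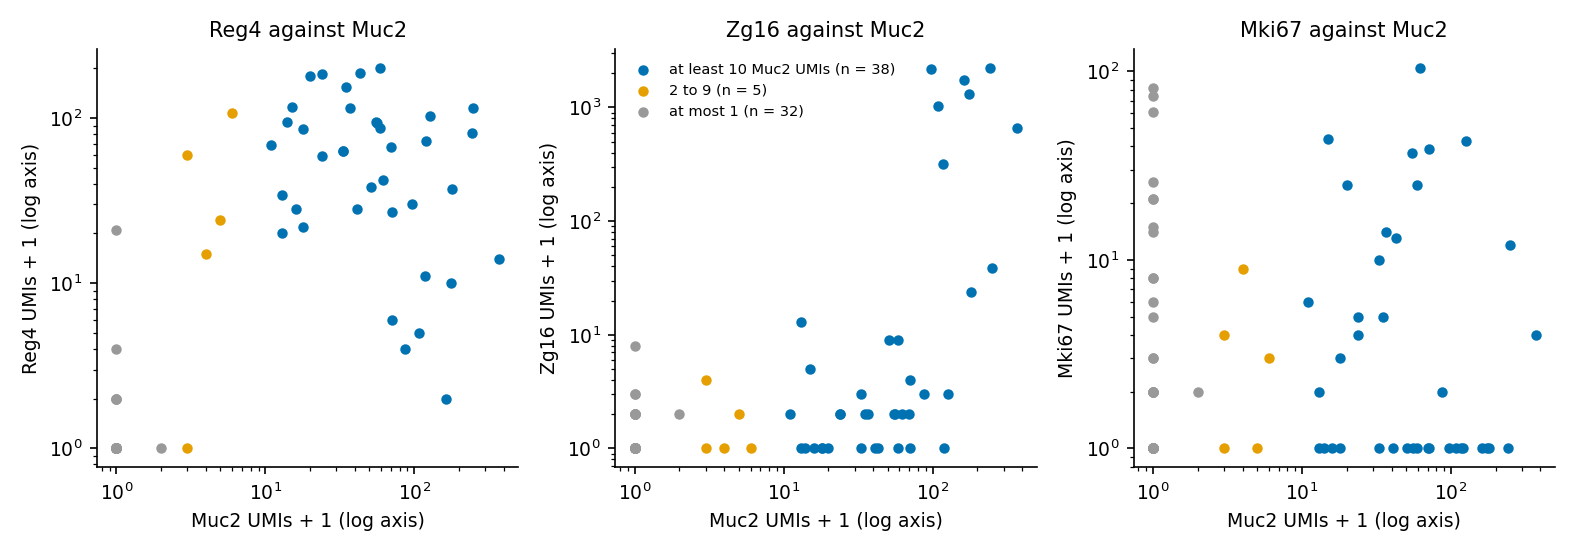
UMIs of Reg4, Zg16 and Mki67 plus 1 against Muc2 plus 1 on log axes in the 75 keratin members with at least 10000 UMIs, coloured by Muc2 class. Reg4 was at least 10 in 33 of the 38 Muc2 carriers, Zg16 above 100 in 7 of them, and Mki67 was spread over carriers and other cells.

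Across these 75 cells, each thinned to 10000 UMIs, Pearson's r with Muc2 was 0.86 for Sval1 (Spearman's rho 0.88), 0.82 for Tff3 (rho 0.85), 0.68 for Reg4 (rho 0.73) and 0.58 for Zg16 (rho 0.57). For Lgals4 it was 0.1 (rho 0.05) and for Sycn 0.01 (rho -0.05). Between Reg4 and Zg16 r was 0.13 (rho 0.2), between Krt8 and Krt19 it was 0.67 (rho 0.74) and between Krt8 and Krt18 -0.03 (rho -0.11). These are 9 of the 19 pairs computed. The cells share 1 library and its free RNA, so these values describe the cells and no p-value was computed.

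Xist and Y-linked transcripts were unevenly spread over the cells. Xist, the RNA that coats the inactive X chromosome, marks female cells, and Ddx3y, Eif2s3y, Kdm5d and Uty are Y-linked. Of the 88 keratin members, 75 had Xist alone, 2 a Y-linked UMI alone, 3 both and 8 neither. In the 75 deeper ones, 73 held Xist, at 6 to 146 UMIs and a median of 28 over all 75, and the 2 without it held 1 and 5 Y-linked UMIs. One of these, with 177941 UMIs, was among the deepest members. Of the 25 keratin-poor members, 3 had Xist alone, 17 a Y-linked UMI alone, 1 both and 4 neither.

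After thinning to 5000 UMIs, cells with a Y-linked UMI alone were 0 of the 70 keratin members that showed only 1 of the 2 signals (interval 0 to 5.13%). They were 25.0% of such cells in the endothelial gate (22.0 to 28.2%), 42.2% in the Csf1r gate, 61.2% in the fibroblast gate, 76.7% in the Cd79a gate and 39.4% over all kept cells. The keratin members lay below every gate. How many mice gave the keratin members was not measured, and the spread between mice cannot be told apart from the difference between cell types.

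**Figure D4:**
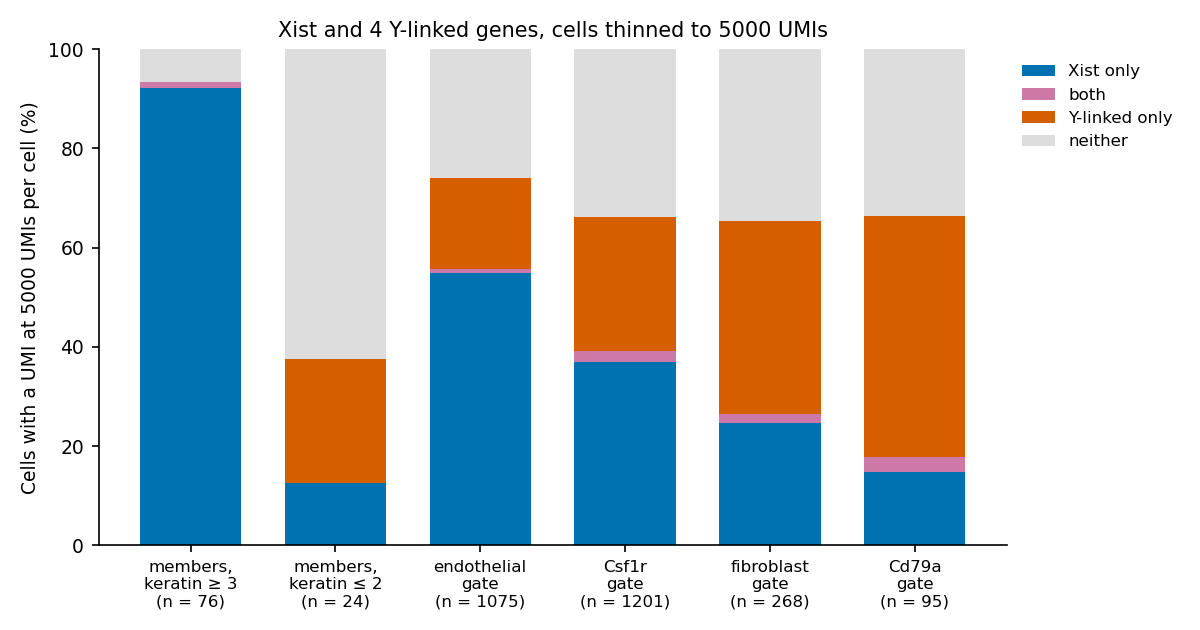
Share in percent of cells with Xist alone, both signals, a Y-linked gene alone or neither, after thinning to 5000 UMIs per cell, with the number of cells under each bar. Xist alone was found in 70 of 76 keratin members, and the share with a Y-linked gene alone was 0 there and larger in each of the 4 gated sets.

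The exclusion limits of the rule removed about as many cells as they kept. Of 230 cells that met the marker minimum, 117 failed, 70 on Csf1r, 74 on Cd79a and 29 on the endothelial sum. The median depth was 28188 UMIs in members and 36833 in failed cells. Among the failed cells 32 held at least 20 UMIs of Cldn7 and Lgals4 together, with a median of 58268.5 and a highest value of 266557 UMIs, and they held 16817 of the 17753 marker UMIs of the failed cells. The 4 endothelial genes stood at 29.1 CPM in members, 123 CPM in these 32 cells and 2560 CPM in the other kept cells without failed ones. With the limits scaled to depth, at 1, 1 and 4 UMIs for every 20000 UMIs, 128 cells passed, and all 15 added cells were keratin cells. A further 12 barcodes with the markers had been removed for mitochondrial UMIs. With no UMI of an excluding gene allowed 25 members were left, and with at most 5% mitochondrial UMIs 75 were left.

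**Figure D5:**
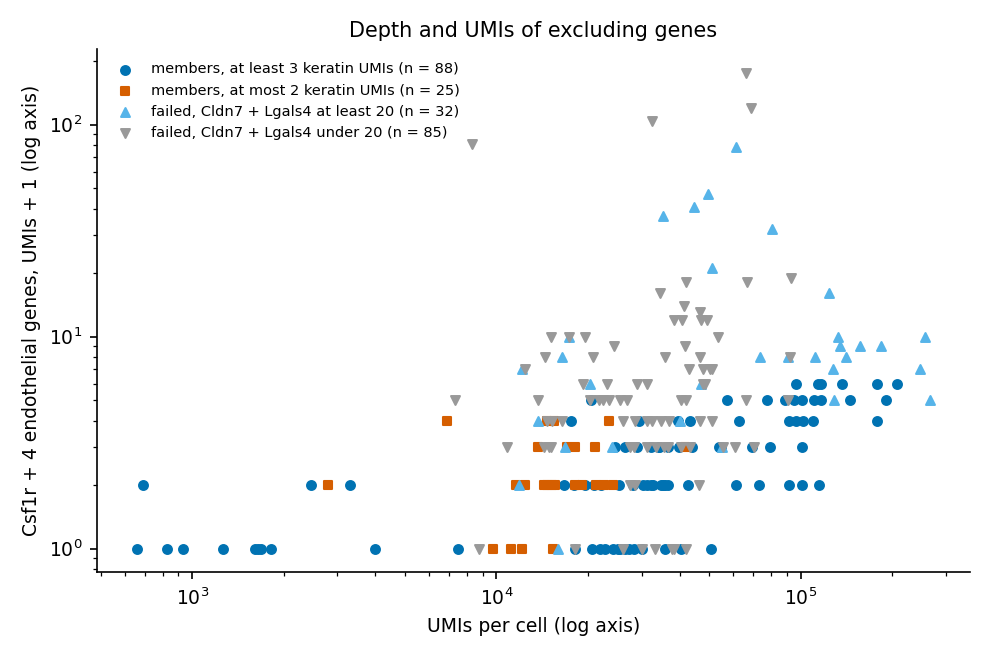
UMIs per cell against the UMIs of Csf1r and the 4 endothelial genes plus 1, both on log axes, for the 88 and 25 members and the 32 and 85 failed cells by Cldn7 and Lgals4. Failed cells with Cldn7 and Lgals4 reach the greatest depths, up to 266557 UMIs.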

How the data were processed

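Per the labels' protocols, CD11b-selected colon cells were made into 10x 3' libraries with version 2 chemistry. The authors deposited UMI counts per gene and barcode for 32285 features, whole numbers with no normalization. Per the submitters' processing notes, Cell Ranger 2.1.1 and mm10 were used, whereas per the file headers version 6.0.0 wrote the matrices. Which of these made the counts is not settled. Called barcodes started at 500 to 502 UMIs, and free RNA was not subtracted.

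The members and lists were chosen with earlier results of these data known. Levels (CPM) are the UMIs of a gene scaled to a common total. Endothelial-gated cells had Epcam at 0 and at least 5 UMIs of the 4 endothelial genes, and other gates were at least 2 UMIs of Csf1r, 2 of Cd79a or 10 of 4 fibroblast genes. Genes were compared at 50 CPM or more in either set and at least 30 UMIs over both, with a 4-fold limit and exact conditional binomial 95% intervals. A count of 0 was given the limit of 3 counts. Members were clustered with Leiden (leidenalg 0.10.2, scanpy 1.11.5) on 500 variable genes, 10 principal components and 10 neighbours at resolution 0.5. Doublets were called with Scrublet at 0.8% per 1000 cells and were kept in the main values. The ratio intervals were tested on simulated counts.

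Named genes were the 15 highest by CPM, the 20 highest ratios to other kept cells (at least 200 CPM, a UMI in 20% of members), the 10 highest variance-to-mean ratios, 5 per cluster, the highest of each list and any lineage marker, with mitochondrial, ribosomal, immunoglobulin and unnamed genes left out. Hormone, Dcn and Igkc cells and the genes of the Muc2 split were named after their values were seen. So were the keratin split, the sequences shown and the 4 motifs. Coordinates are from RefSeq, GRCm38.p6. Python 3.11.15, numpy 2.4.6, pandas 2.3.3, scipy 1.17.1 and matplotlib 3.10.9 were used.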

Additional observations from a re-analysis of the deposited data

How the results depend on the processing

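No paired analysis was possible because each group was 1 library and no result came from a test. The values compared are counts and shares, so they have no direction that an alternative could reverse. Of 65 alternative values of the counts and shares that answer a comparison, 35 stayed within 1.5 times (counts) or within the counting interval (shares), as did 41 of 67 other values. The number of members was 75 with at most 5% mitochondrial UMIs and 25 with no UMI of an excluding gene. Their share of kept cells was 1.04% and 0.324% under these, 1.79% at a marker sum of at least 4 and 1.14% with at least 3 keratin UMIs. Genes at least 4-fold higher numbered 576 with a floor of 20 CPM and 1121 with none, since more genes were then compared. The intervals of the list shares are narrow, so small moves leave them. Without mitochondrial and ribosomal genes in the total the goblet, absorptive and stem shares were 1.46%, 0.307% and 0.107%. With cells weighted equally they were 1.16%, 0.163% and 0.0686%, and with members thinned to 1000 UMIs 1.1%, 0.162% and 0.0642%. They were 0.987%, 0.12% and 0.0783% at 5% mitochondrial UMIs, 1.04%, 0.22% and 0.0767% at a marker sum of 10, and 2.49%, 0.183% and 0.077% with no UMI of an excluding gene. With at least 3 keratin UMIs they were 1.1%, 0.231% and 0.0804%, and without the deepest member the goblet share was 1.03%. The keratin minimum, the depth-scaled limits and the 10000-UMI minimum were added after seeing the data. With 113 cells from 1 library, a cell state of a few cells can be missed, and counts near 0 do not show absence.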
